A study of Homo sapiens with 9 samples.

Results

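The interferon response and MHC class I antigen presentation genes of GIST-T1, an established human line grown from a gastrointestinal stromal tumour (GIST), were followed in 9 RNA-seq libraries. The set was given by name as 48 genes, interferon-stimulated genes and 6 genes of MHC class I presentation, and all 48 were found among the 23610 genes of the table. HAND1 sgRNA was present in 3 libraries, ETV1 sgRNA in 3 and Luciferase sgRNA, a control guide with no target in human cells, in 3. The cell line was the same in all 9, and the labels name no treatment, no time after guide delivery and no added interferon. Both targets encode transcription factors known as lineage factors of GIST, HAND1 of the basic helix-loop-helix family and ETV1 of the ETS family. Whether libraries of the same guide stem from separate cultures is not stated in the labels. The p-values therefore rest on the spread among these libraries, and that spread may be technical.

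As background, type I interferons bind the receptor pair IFNAR1 and IFNAR2, which signals through the kinases JAK1 and TYK2 to a complex that holds STAT2 and IRF9. This complex binds the interferon-stimulated response element (ISRE) in the promoters of its target genes. The induced proteins sense viral RNA, degrade it, block its translation or entry, or tag proteins with the ubiquitin-like modifier ISG15. MHC class I presentation cuts proteins in the immunoproteasome (PSMB8, PSMB9), moves the peptides through TAP1 and shows them on HLA molecules bound to B2M. Many tumour cell lines also express part of these genes without added interferon.

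Levels are given as FPKM, the fragments of a gene scaled to its transcript length and to the depth of the library, so that they may be compared between genes. The 11348 genes that averaged 1 FPKM or more across the 9 libraries were tested with limma on log2(FPKM + 1). A gene is called where the Benjamini-Hochberg adjusted p over all of these genes is under 0.05. Each difference below is a difference of group means on that log2 scale, where the pseudocount shrinks the change of low genes. Of the 48 genes 31 were tested and 17 were not. Of these 17, 14 were above 0 in some library with a mean under 1 FPKM, and PSMB8, PSMB9 and TAP1 were listed at 0 in all 9 libraries.

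Each targeted transcript was lower with its own guide. Against Luciferase sgRNA, HAND1 fell by 1.55 (limma adjusted p = 2.07e-07) with HAND1 sgRNA and ETV1 fell by 1.71 (adjusted p = 6.22e-07) with ETV1 sgRNA. All 9 GIST markers examined, among them KIT, ANO1 and CD34, had a mean above 1 FPKM, against 1 of 12 leukocyte markers (CD68), 0 of 5 endothelial markers and 2 of 6 epithelial markers (KRT8 and KRT18). Depth relative to Luciferase sgRNA replicate 1 lay between 0.637 and 0.953, and its absolute value is unknown. Luciferase sgRNA replicate 3 stood apart, with a summed FPKM of 538689, while replicates 1 and 2 of Luciferase sgRNA had 453458 and 463503. In that library all 7 tested members whose longest coding transcript is under 1200 nt (IFITM1, IFITM2, IFITM3, BST2, ISG15, IFI6 and IFI27) lay above the mean of replicates 1 and 2, by 0.22 to 0.52. Over the 24 longer members its median difference was −0.07, and 8 lay above 0. Short transcripts outside the members were not examined.

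Promoters are shown for IFIT1, IFIT5, DTX3L and UBE2L6, the members called with HAND1 sgRNA that could be matched to a promoter, and for ISG15 as a member that was not called. They come from RefSeq (GRCh38.p14) and run from 250 bases before to 50 bases after the annotated start, 5′ to 3′ on the strand of the gene. The IFIT1 promoter lies at chr10:89392373-89392672 (+), that of IFIT5 at chr10:89414318-89414617 (+) and that of DTX3L at chr3:122564088-122564387 (+). The UBE2L6 promoter lies at chr11:57567886-57568185 (−) and that of ISG15 at chr1:1013247-1013546 (+). Capitals mark the ISRE letters, GAAA, any 2 bases and GAAA again, on either strand.
IFIT1 promoter: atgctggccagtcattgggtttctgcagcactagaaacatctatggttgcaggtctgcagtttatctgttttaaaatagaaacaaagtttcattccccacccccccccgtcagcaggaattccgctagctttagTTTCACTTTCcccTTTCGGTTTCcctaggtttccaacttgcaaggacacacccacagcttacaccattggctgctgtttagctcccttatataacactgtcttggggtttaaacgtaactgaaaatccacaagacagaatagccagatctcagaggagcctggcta
IFIT5 promoter: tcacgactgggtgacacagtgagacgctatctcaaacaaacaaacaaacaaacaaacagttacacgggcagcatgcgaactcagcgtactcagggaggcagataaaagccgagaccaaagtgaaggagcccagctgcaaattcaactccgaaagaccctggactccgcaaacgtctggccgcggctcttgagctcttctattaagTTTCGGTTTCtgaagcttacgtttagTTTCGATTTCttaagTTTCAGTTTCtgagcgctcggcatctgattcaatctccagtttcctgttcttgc
DTX3L promoter: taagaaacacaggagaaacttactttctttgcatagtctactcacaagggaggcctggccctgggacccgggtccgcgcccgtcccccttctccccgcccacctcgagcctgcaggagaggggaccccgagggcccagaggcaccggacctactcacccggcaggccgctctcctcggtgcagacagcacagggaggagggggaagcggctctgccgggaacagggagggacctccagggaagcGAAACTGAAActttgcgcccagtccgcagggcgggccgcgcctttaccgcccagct
UBE2L6 promoter: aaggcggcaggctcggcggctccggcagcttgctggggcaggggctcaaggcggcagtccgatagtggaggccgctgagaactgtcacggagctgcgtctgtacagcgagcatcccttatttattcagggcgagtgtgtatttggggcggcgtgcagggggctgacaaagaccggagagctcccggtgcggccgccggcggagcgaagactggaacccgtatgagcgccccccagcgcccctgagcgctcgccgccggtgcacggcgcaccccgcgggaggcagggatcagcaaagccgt
ISG15 promoter: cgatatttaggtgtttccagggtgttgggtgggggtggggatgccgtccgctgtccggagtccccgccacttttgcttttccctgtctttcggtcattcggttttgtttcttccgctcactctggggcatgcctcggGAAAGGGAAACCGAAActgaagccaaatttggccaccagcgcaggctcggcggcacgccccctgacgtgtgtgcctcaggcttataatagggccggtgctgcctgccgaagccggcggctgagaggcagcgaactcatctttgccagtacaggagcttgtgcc

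IFIT1 held the ISRE letters in a pair between 116 and 94 bases before the start, and ISG15 in an overlapping pair between 113 and 98 bases before it. IFIT5 held 3 matches, at 45 to 36 and 19 to 10 bases before the start and across the start, and DTX3L held 1 across the start. UBE2L6 held none in this window. Of the 48 members 39 were matched to a promoter, and 23 of the 39 (59%) held the ISRE letters, against 3.57% of 35116 promoters of the same length. The GAS letters TTCNNNGAA, bound by STAT dimers, were in 8 of 39 (20.5%) against 7.66% of all promoters, and they overlapped an ISRE match in BST2, IFI27 and IFITM1. The ETS core CCGGAA, the letters that ETV1 can bind, was in 1 of 39 (2.56%), RSAD2, against 17.2% of all promoters. The E-box letters CANNTG, which HAND1 and its partners can bind, were in 25 of 39 (64.1%) against 68.7%. All motifs were searched on both strands, and a match is a description of the letters and not a measured site. IFIT2, DDX58, DHX58, IRF7, OAS2, OASL, MX2, IFITM2 and USP18 had no matched promoter.

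Without added interferon, the members ranged from 0 to 781 FPKM. By mean level, 6 members had at least 50 FPKM, 11 at least 10 FPKM and 20 between 1 and 10 FPKM. The highest was IFITM3, a membrane protein that blocks virus fusion, at 714 ± 39.7 FPKM with HAND1 sgRNA, 710.5 ± 34.6 with ETV1 sgRNA and 688 ± 80.7 with Luciferase sgRNA (SD, n = 3 each). BST2, which tethers budding virus to the cell surface, followed at 339 to 420.0 FPKM over the 9 libraries and B2M, the light chain of MHC class I, at 228 to 286 FPKM. IFITM1 (73.7 to 98.8 FPKM), UBE2L6 (57.2 to 79.1 FPKM) and ISG15 (49.3 to 86.7 FPKM) came next. IFITM1, IFITM2 and IFITM3 are paralogues of similar sequence, so the split of reads between them is uncertain.

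**Figure D1:**
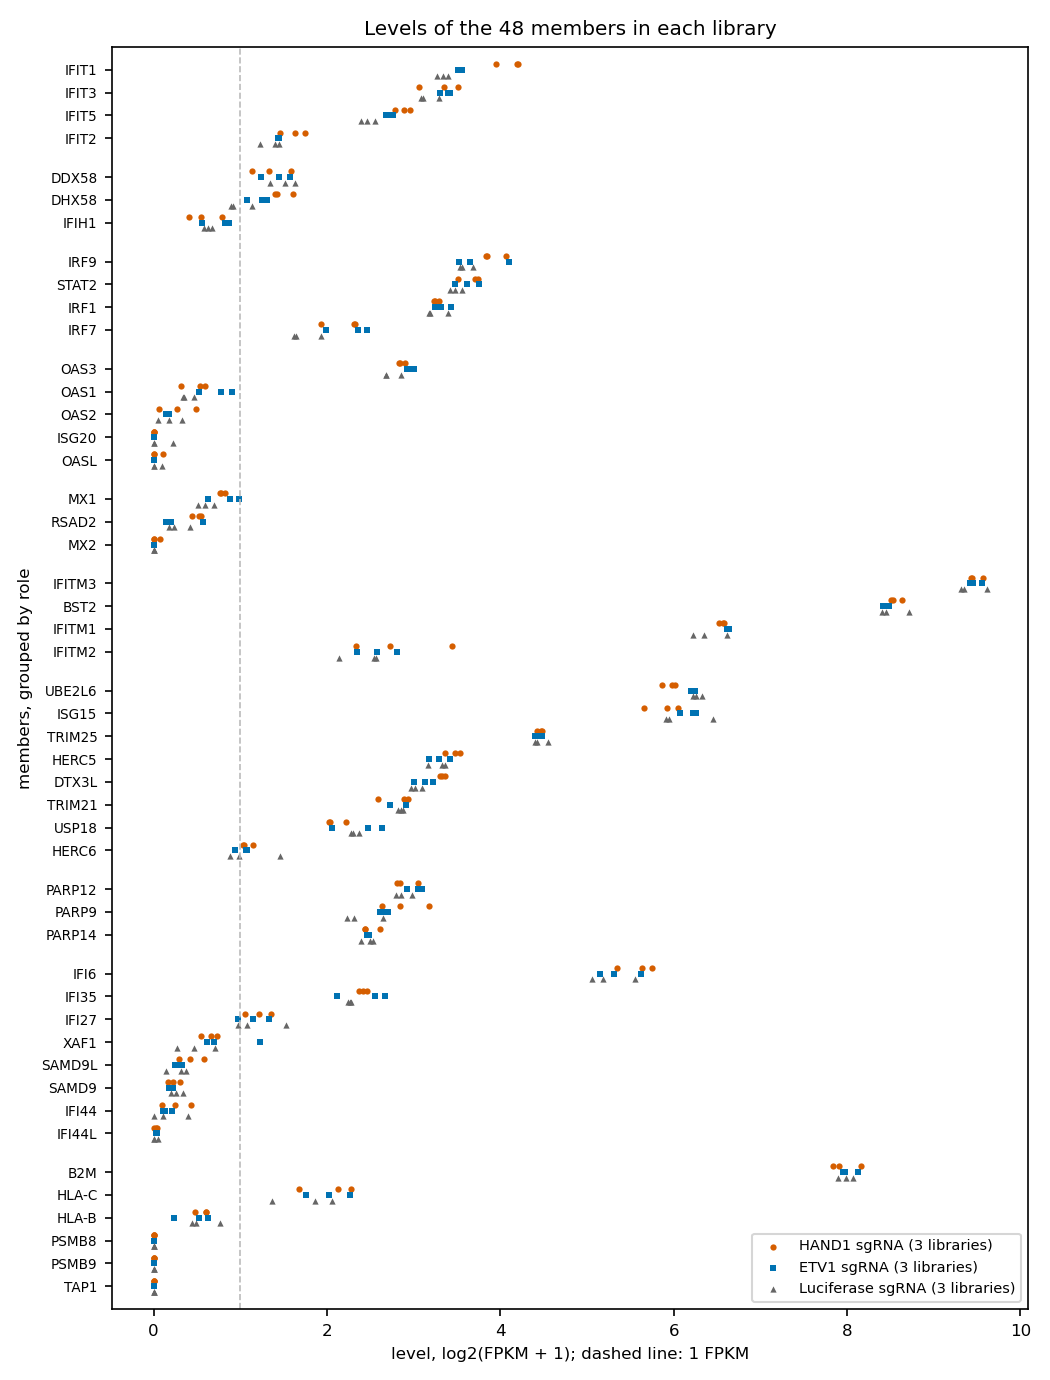
Levels of the 48 genes on a log2(FPKM + 1) axis, by role, with 1 point per library for HAND1 sgRNA, ETV1 sgRNA and Luciferase sgRNA (n = 3 each). IFITM3, BST2 and B2M sit highest, up to 781 FPKM for IFITM3, while the MX GTPases, RSAD2 and 4 of the 5 OAS family and ISG20 genes lie under 1 FPKM.

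Several classical interferon-induced genes were near the bottom of the scale. MX1, a GTPase that traps viral nucleocapsids, ranged from 0.421 to 0.979 FPKM and its paralogue MX2 was at 0 in 8 of 9 libraries. OAS1 (0.241 to 0.867 FPKM) and OAS2 (0.0339 to 0.401 FPKM), which make the activator of RNase L, were under 1 FPKM in all 9 libraries, OASL was at 0 in 7 of 9 and the exonuclease ISG20 at 0 in 8 of 9. OAS3, the long member of the family, was the exception at 5.42 to 7.0 FPKM. RSAD2 (0.103 to 0.488 FPKM), the radical SAM enzyme viperin, IFIH1 (0.326 to 0.823 FPKM), the RNA sensor MDA5, IFI44 (up to 0.347 FPKM) and IFI44L (up to 0.0373 FPKM) were low too. The same held for SAMD9 (0.126 to 0.264 FPKM) and SAMD9L (0.107 to 0.495 FPKM), which restrict poxviruses, and XAF1 (0.205 to 1.34 FPKM), an antagonist of the apoptosis inhibitor XIAP.

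The MHC class I members other than B2M cannot be read as expression. Of 129 protein-coding genes of the table that lie between HLA-F and TAPBP in the gene order of chromosome 6, 113 (87.6%) were at 0 in all 9 libraries, against 3177 of 17423 (18.2%) protein-coding genes of the whole table. Genes that every cell uses were among them: the ribosomal protein gene RPS18, the tubulin gene TUBB and the splicing helicase gene DDX39B were listed at 0, while 30 other RPS genes had a median of 736 FPKM. Of these 30, 1 had a mean under 1 FPKM, RPS28 at 0.72 FPKM. Of the 129, 3 had a mean of at least 1 FPKM, HLA-C (2.9 FPKM) and BRD2 (2.13 FPKM) among them. Of the 80 protein-coding genes next to the region, 40 on each side, 24 reached that mean, among them RPS10 at 356 FPKM, and 37 were at 0 in all 9 libraries. Values of 0 in all 9 libraries were also listed for the 23 genes before HLA-F, many of them olfactory receptor genes, and for 5 of the 7 after TAPBP. Whether these flanking zeros have the same origin as those of the region was not tested. PSMB8, PSMB9 and TAP1 are therefore given only as listed at 0, and HLA-B (0.173 to 0.705 FPKM) and HLA-C (1.58 to 3.83 FPKM), near-identical neighbours that can share reads, carry no statement about their levels. HLA-C is still 1 of the 31 tested members, so it enters their counts and medians below. Its difference was above 0 in each comparison and was not called. Why the region is listed at 0 was not tested.

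**Figure D2:**
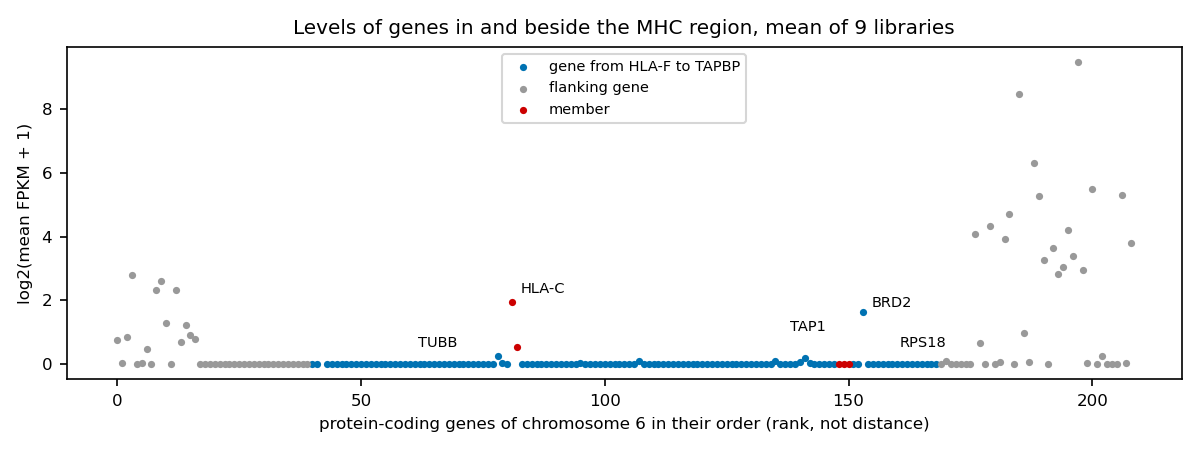
Mean level over the 9 libraries, as log2(mean FPKM + 1), of 129 protein-coding genes from HLA-F to TAPBP and of 40 flanking genes on each side, placed by their rank along chromosome 6. The region is listed at 0 for nearly all of its genes, TAP1, RPS18 and TUBB included, and 1 of the 129 genes, with a mean above 1 FPKM, is not drawn.

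With HAND1 sgRNA against Luciferase sgRNA, 4 members rose and 1 fell. The risers were IFIT1, IFIT5, DHX58 and DTX3L, and UBE2L6 fell, so that 5 of 31 (16.1%) were called, against 6.6% of all genes tested. By direction, 4 of 31 were higher, against 3.67% of all genes, and 1 of 31 was lower, against 2.93%. A bulk library cannot tell a change of level in every cell from a change in the share of cells with that level. The median difference over the 31 was 0.15, against −0.01 over all genes, and 23 of 31 (74.2%) were above 0, against 46.1%. In 7 of 31 all 3 HAND1 sgRNA libraries lay above all 3 Luciferase sgRNA libraries, against 13% of all genes, and in 2 of 31 they all lay below, against 12.7%. The median was 0.09 without Luciferase sgRNA replicate 2. The count of called members was 2 without HAND1 sgRNA replicate 2 or 3, where 4.25% and 3.82% of all genes were called. It was 3 without ETV1 sgRNA replicate 3 or Luciferase sgRNA replicate 2, where 6.42% and 4.3% of all genes were called.

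IFIT1, which binds viral RNA that lacks the host cap methylation and blocks its translation, showed the largest difference. It stood at 17.3, 17.4 and 14.4 FPKM in the HAND1 sgRNA libraries, 10.4, 10.7 and 10.7 FPKM in the ETV1 sgRNA libraries, and 9.09, 8.62 and 9.53 FPKM in the Luciferase sgRNA libraries. The lowest HAND1 sgRNA library lay above every ETV1 sgRNA and Luciferase sgRNA library. In limma IFIT1 rose by 0.78 (SE 0.079, 95% interval 0.61 to 0.96, adjusted p = 2.37e-04), and the means of 16.4 ± 1.67 and 9.08 ± 0.455 FPKM (SD, n = 3 each) differed 1.80-fold. The call was kept under all 20 alternatives, with differences of 0.60 to 0.88.

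The other IFIT proteins bind RNA alone or in complex with IFIT1. IFIT5, which binds RNA with a 5′ phosphate, was at 5.90, 6.78 and 6.43 FPKM with HAND1 sgRNA, against 4.86, 4.50 and 4.25 FPKM with Luciferase sgRNA. The groups did not overlap, and IFIT5 rose by 0.41 (SE 0.081, adjusted p = 0.0125). Leaving out HAND1 sgRNA replicate 2 or 3 ended the limma call (adjusted p = 0.0578 and 0.0535). IFIT2 was at 2.11, 1.76 and 2.36 FPKM with HAND1 sgRNA, against 1.65, 1.72 and 1.35 FPKM with Luciferase sgRNA, a difference of 0.26 that was not called (limma adjusted p = 0.239) although the groups did not overlap. IFIT3, which stabilises IFIT1 on RNA, overlapped between the groups at 7.38 to 10.4 FPKM against 7.46 to 8.83 FPKM (0.15, adjusted p = 0.512).

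Of the RNA sensors, DHX58 (LGP2), a helicase that modulates the other RIG-I-like receptors, rose. It was at 1.64, 2.05 and 1.68 FPKM with HAND1 sgRNA, against 0.858, 1.20 and 0.880 FPKM with Luciferase sgRNA. The groups did not overlap and the difference was 0.50 (SE 0.13, adjusted p = 0.0443). With a Luciferase sgRNA mean of 0.981 FPKM, DHX58 passed the minimum of 1 FPKM through the other groups. Its limma call ended when HAND1 sgRNA replicate 1, 2 or 3 was left out (adjusted p = 0.0832, 0.148 and 0.101), as it did for ETV1 sgRNA replicate 1 or 3 (0.0627 and 0.0556) and Luciferase sgRNA replicate 1, 2 or 3 (0.124, 0.0519 and 0.107). It also ended with a pseudocount of 0.1 (0.0507), after rescaling to TPM (0.0573), with library weights (0.0524) and with only these groups in the fit (adjusted p = 0.0708). DDX58 (RIG-I), the sensor of RNA with a 5′ triphosphate, was at 1.20 to 2.00 FPKM with HAND1 sgRNA against 1.53 to 2.10 FPKM with Luciferase sgRNA (−0.14, adjusted p = 0.652).

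Of the 8 genes of ISG15 conjugation and ubiquitin ligases, UBE2L6 fell, DTX3L rose and 6 were not called. UBE2L6, the enzyme that carries activated ISG15 to its ligase, was at 57.2, 62.2 and 63.9 FPKM with HAND1 sgRNA, 75.1, 72.5 and 73.3 FPKM with ETV1 sgRNA and 75.3, 73.8 and 79.1 FPKM with Luciferase sgRNA. The 3 HAND1 sgRNA libraries lay below the other 6. UBE2L6 fell by 0.31 against Luciferase sgRNA (SE 0.055, 95% interval −0.43 to −0.19, adjusted p = 0.00689), a call kept with any of the 9 libraries left out and lost after rescaling to TPM (−0.25, limma adjusted p = 0.0626).

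DTX3L, a ubiquitin ligase that works as a pair with PARP9, was at 9.25, 9.0 and 8.87 FPKM with HAND1 sgRNA, against 7.55, 6.85 and 7.10 FPKM with Luciferase sgRNA. The groups did not overlap and DTX3L rose by 0.30 (SE 0.076, adjusted p = 0.0444). The limma call ended when any HAND1 sgRNA library (adjusted p = 0.133, 0.114 and 0.109 for replicates 1 to 3) or any Luciferase sgRNA library (0.0612, 0.137 and 0.0917) was left out, and likewise ETV1 sgRNA replicate 3 (0.0610). It also ended without the filter on low values (0.0699), after quantile normalization (0.0556), after rescaling to TPM (0.0913) and with only these groups in the fit (adjusted p = 0.0517). PARP9, its neighbour on the opposite strand, was at 5.20, 6.19 and 8.04 FPKM against 5.27, 3.97 and 3.71 FPKM with Luciferase sgRNA, and the groups overlapped (0.49, adjusted p = 0.0792). PARP9 was called without HAND1 sgRNA replicate 1 (0.61, limma adjusted p = 0.0484) or Luciferase sgRNA replicate 1 (0.61, 0.0415). It was called with library weights too. The exons of DTX3L and PARP9 overlap, and a non-stranded library cannot tell the reads of the pair apart.

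**Figure D3:**
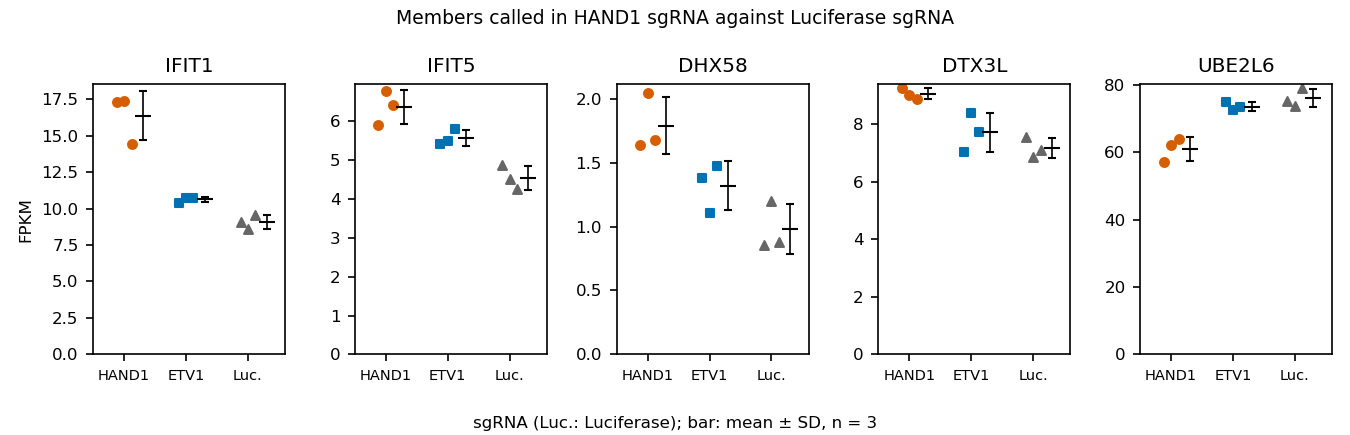
FPKM of the 5 members called with HAND1 sgRNA against Luciferase sgRNA, 1 panel per gene, with 1 point per library and the mean ± SD (n = 3) for HAND1 sgRNA, ETV1 sgRNA and Luciferase sgRNA; all axes start at 0. In each panel the 3 HAND1 sgRNA points overlap neither the 3 ETV1 sgRNA points nor the 3 Luciferase sgRNA points.

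The other members of that group were not called. ISG15 itself was at 59.8, 65.3 and 49.3 FPKM with HAND1 sgRNA, against 60.8, 59.4 and 86.7 FPKM with Luciferase sgRNA (−0.23, limma adjusted p = 0.408). ISG15 is 1 of the 7 tested members under 1200 nt that lay higher in Luciferase sgRNA replicate 3. USP18, the protease that removes ISG15 from proteins, was at 3.67, 3.06 and 3.08 FPKM against 4.15, 3.91 and 3.85 FPKM with Luciferase sgRNA, without overlap between the groups (−0.22, adjusted p = 0.408). The ISG15 ligase HERC5 (0.16), its relative HERC6 (−0.03), the antibody receptor TRIM21 (−0.05) and TRIM25 (−0.00122), the ligase that activates RIG-I, overlapped between the groups, with limma adjusted p from 0.332 to 0.992.

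The transcription factors of the response were not called with HAND1 sgRNA. IRF7, which drives interferon genes, was at 3.95, 4.01 and 2.82 FPKM with HAND1 sgRNA against 2.07, 2.82 and 2.12 FPKM with Luciferase sgRNA (0.46, adjusted p = 0.125). IRF9, the DNA-binding part of the STAT complex, was at 13.4, 15.8 and 13.3 FPKM against 10.8, 10.6 and 11.8 FPKM with Luciferase sgRNA, without overlap (0.32, adjusted p = 0.198). STAT2, its partner, differed by 0.17 (adjusted p = 0.318), and IRF1, an early factor of the interferon gamma response, by 0.01 (adjusted p = 0.980), at 8.44 to 8.80 FPKM with HAND1 sgRNA against 8.06 to 9.55 FPKM with Luciferase sgRNA. With IFIT2 and PARP9, IRF7 and IRF9 were the members that had an unadjusted p under 0.05 in limma without a call; 9 of 31 members passed that level, against 20.3% of all genes.

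The 4 most abundant members, IFITM3, BST2, B2M and IFITM1, were not called. IFITM3 differed by 0.06 (95% interval −0.14 to 0.26), BST2 by 0.03 (−0.15 to 0.22) and B2M by −0.01 (−0.21 to 0.18) between HAND1 sgRNA and Luciferase sgRNA. IFITM1 was at 90.8, 94.3 and 94.6 FPKM with HAND1 sgRNA against 80.7, 73.7 and 96.9 FPKM with Luciferase sgRNA, and replicate 3 of Luciferase sgRNA was the highest of the 6. Its difference was 0.16 (adjusted p = 0.319), and 0.27 with a limma call (adjusted p = 0.0120) without Luciferase sgRNA replicate 3. A call of IFITM1 was also made with library weights. IFI6, a mitochondrial inhibitor of apoptosis, was at 39.8, 52.7 and 48.9 FPKM with HAND1 sgRNA against 32.2, 35.4 and 45.9 FPKM with Luciferase sgRNA, and the groups overlapped. IFITM2 (0.42), IFI6 (0.32), IFI35 (0.16), OAS3 (0.12), PARP12 and PARP14 (0.02 each) and IFI27 (0.01) were not called either, with limma adjusted p from 0.285 to 0.977.

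With ETV1 sgRNA against Luciferase sgRNA, 0 of 31 members were called in limma, against 0.203% of all genes tested (0.141% higher and 0.0617% lower), and 5 of 31 had an unadjusted p under 0.05, against 8.2% of all genes. These were IRF7, IFIT5, OAS3, IFITM1 and IFIT1. The median over the 31 was 0.09, against −0.01 over all genes, and 24 of 31 (77.4%) were above 0, against 46.9%. In 5 of 31 the 3 ETV1 sgRNA libraries all lay above the 3 Luciferase sgRNA libraries, against 6.88% of all genes, and in 0 of 31 they all lay below, against 6%. This comparison shares its Luciferase sgRNA libraries with the previous one. The median ranged from 0.06 without Luciferase sgRNA replicate 2 to 0.13 without Luciferase sgRNA replicate 3.

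IRF7 showed the largest of these differences. It was at 4.51, 4.12 and 2.98 FPKM in the ETV1 sgRNA libraries, against 2.07, 2.82 and 2.12 FPKM in the Luciferase sgRNA libraries, without overlap (0.54, SE 0.16, adjusted p = 0.364). OAS3 was at 7.0, 6.60 and 6.80 FPKM against 6.24, 5.42 and 5.42 FPKM, also without overlap (0.22, adjusted p = 0.451). IFIT5 was at 5.42, 5.50 and 5.79 FPKM with ETV1 sgRNA (0.25, adjusted p = 0.425) and IFIT1 differed by 0.21 (adjusted p = 0.506), both above every Luciferase sgRNA library given above. IFITM1 was at 98.6, 96.7 and 98.8 FPKM with ETV1 sgRNA and overlapped Luciferase sgRNA through Luciferase sgRNA replicate 3 alone (0.23, adjusted p = 0.482). Without Luciferase sgRNA replicate 3, IFITM1 was the 1 member called in limma (0.34, adjusted p = 0.0325), where 0.247% of all genes were called. DHX58 (0.23), DTX3L (0.09), PARP9 (0.26) and UBE2L6 (−0.05) had limma adjusted p from 0.704 to 0.892.

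With HAND1 sgRNA against ETV1 sgRNA, 2 of 31 members (6.45%) were called, against 4.05% of all genes tested. By direction, 1 of 31 was higher, against 2.01% of all genes, and 1 of 31 lower, against 2.04%, and 3 of 31 had an unadjusted p under 0.05, against 15.4%. IFIT1 rose by 0.57 (SE 0.079, 95% interval 0.40 to 0.75, adjusted p = 0.00249) and UBE2L6 fell by 0.27 (SE 0.055, adjusted p = 0.0228). The limma call of IFIT1 was kept under all 20 alternatives. That of UBE2L6 ended without ETV1 sgRNA replicate 1, 2 or 3 (adjusted p = 0.0888, 0.0664 and 0.0734), without HAND1 sgRNA replicate 1 or 2 (0.0891 and 0.0604) and after rescaling to TPM (0.113). Each of these settings left 1 called member, with 2.39% to 2.71% of all genes called. The median over the 31 was 0.01, against 0.00 over all genes, and 18 of 31 (58.1%) were above 0, against 48.8%.

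No other member was called between these guides. DTX3L was higher in all 3 HAND1 sgRNA libraries than in all 3 ETV1 sgRNA libraries (9.25, 9.0 and 8.87 FPKM against 7.02, 8.37 and 7.73 FPKM; 0.21, adjusted p = 0.209). ISG15 was at 59.8, 65.3 and 49.3 FPKM with HAND1 sgRNA against 73.8, 66.5 and 75.2 FPKM with ETV1 sgRNA, with every HAND1 sgRNA library lower (−0.31, adjusted p = 0.346). IFIT5 (0.16, adjusted p = 0.384), DHX58 (0.27, adjusted p = 0.361) and IFIT2 (0.18, adjusted p = 0.524) lay higher in each HAND1 sgRNA library and were not called in limma, and IRF7 overlapped (−0.08, adjusted p = 0.876). In 6 of 31 members all 3 HAND1 sgRNA libraries lay above, against 10.9% of all genes, and in 4 of 31 all lay below, against 11.5%.

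**Figure D4:**
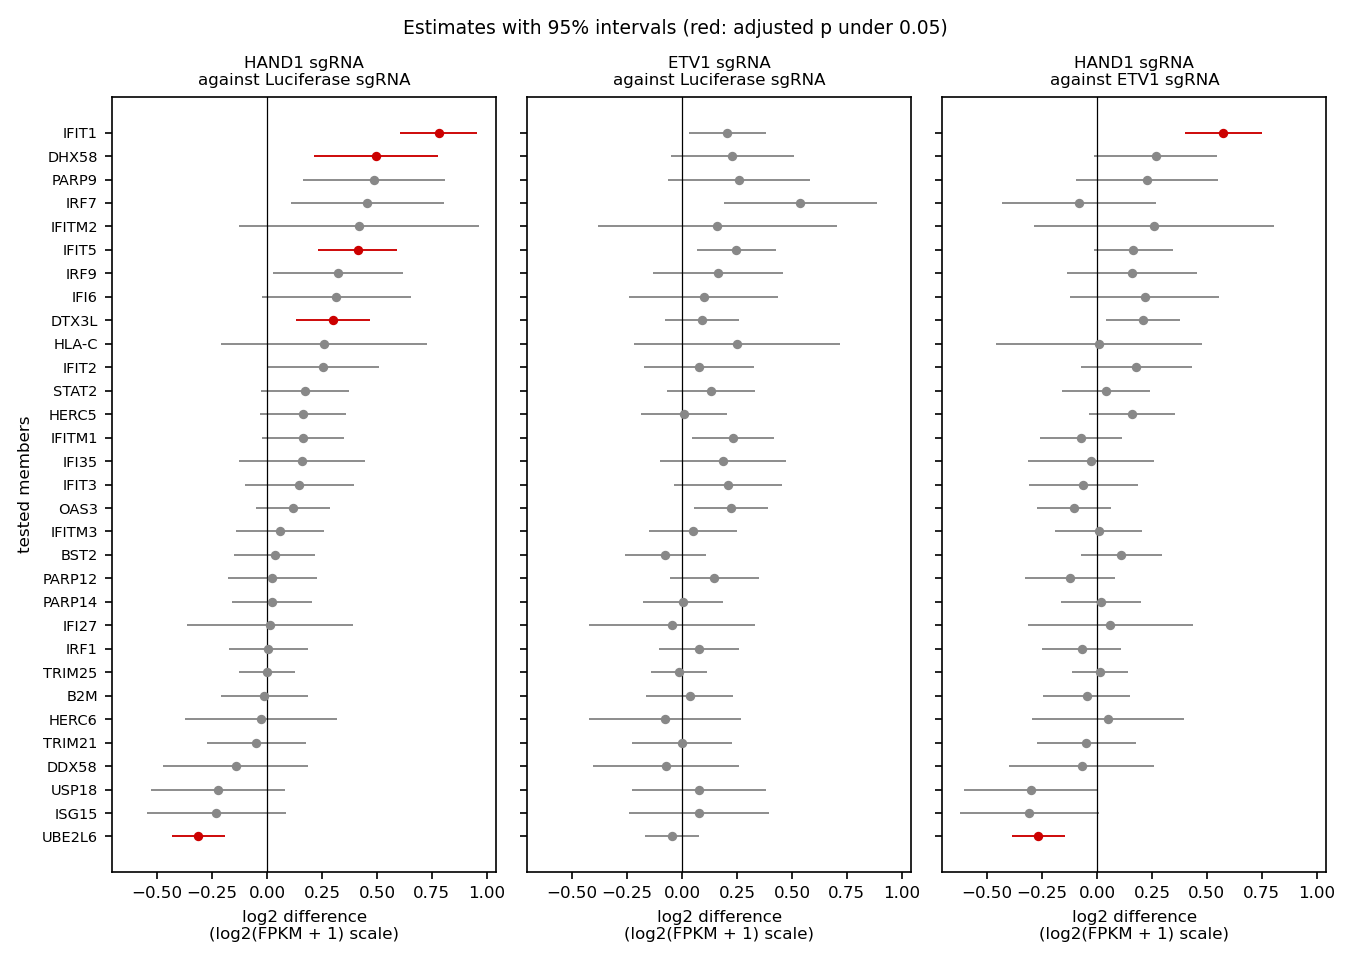
Log2 differences of the 31 tested members with 95% intervals from limma, in 3 panels with the same gene order: HAND1 sgRNA over Luciferase sgRNA, ETV1 sgRNA over Luciferase sgRNA, and HAND1 sgRNA over ETV1 sgRNA. IFIT1 lies highest for HAND1 sgRNA against Luciferase sgRNA (0.78) and against ETV1 sgRNA (0.57), and none of the 31 was called for ETV1 sgRNA against Luciferase sgRNA.

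Beyond the 48 genes, 120 others of the same pathways were examined, of which 66 were tested. With HAND1 sgRNA against Luciferase sgRNA 4 rose and 1 fell, so that 5 of 66 (7.58%) were called, against 6.6% of all genes. The 4 risers, SP100, HELZ2, PLSCR1 and GBP3, were among 28 tested interferon-stimulated genes outside the member list, against 3.67% of all genes called higher. TRIM24, which fell, was 1 of 9 tested negative regulators, against 2.93% of all genes called lower. SP100, the nuclear body protein, was at 15.7, 17.4 and 16.6 FPKM with HAND1 sgRNA against 12.7, 12 and 12.2 FPKM with Luciferase sgRNA (0.40, SE 0.088, adjusted p = 0.0223). TRIM24, a chromatin reader that restrains interferon signalling in mouse liver, was at 48.1, 45.1 and 46.6 FPKM with HAND1 sgRNA against 65.2, 59.4 and 57.5 FPKM with Luciferase sgRNA. TRIM24 fell by 0.37 (SE 0.061, adjusted p = 0.00496), and the groups of neither gene overlapped.

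HELZ2, a helicase, rose by 0.44 (adjusted p = 0.0232), PLSCR1, a phospholipid scramblase, by 0.28 (adjusted p = 0.0385) and GBP3, a guanylate-binding GTPase, by 0.43 (adjusted p = 0.0416). HELZ2 was at 7.89, 7.47 and 8.88 FPKM with HAND1 sgRNA against 6.25, 6.02 and 4.88 FPKM with Luciferase sgRNA. All 3 genes were without overlap between these groups, and their limma calls were lost when single libraries were left out. The call of SP100 ended without replicate 2 or 3 of HAND1 sgRNA (adjusted p = 0.0861 and 0.0759) or Luciferase sgRNA replicate 2 (0.0764). That of HELZ2 was lost without HAND1 sgRNA replicate 1 or 3 (0.0646 and 0.0979) or Luciferase sgRNA replicate 3 (0.0547). PLSCR1 lost it without ETV1 sgRNA replicate 1, 2 or 3 (0.0616, 0.0579 and 0.0528), HAND1 sgRNA replicate 2 or 3 (0.131 and 0.136) or Luciferase sgRNA replicate 1 or 2 (0.0954 and 0.110). GBP3 lost it without ETV1 sgRNA replicate 3 (0.0591), HAND1 sgRNA replicate 1, 2 or 3 (0.107, 0.123 and 0.111) or Luciferase sgRNA replicate 1, 2 or 3 (0.0668, 0.124 and 0.0820). HELZ2, PLSCR1 and GBP3 also lost the limma call without the filter on low values (adjusted p = 0.0515, 0.0614 and 0.0858). HELZ2 and GBP3 lost it after rescaling to TPM (0.0551 and 0.0536), HELZ2 and PLSCR1 with only these groups in the fit (0.0587 and 0.0869), and PLSCR1 without the intensity trend (adjusted p = 0.0621). TRIM24 kept its call with any library left out and lost it after rescaling to TPM (−0.31, adjusted p = 0.10).

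**Figure D5:**
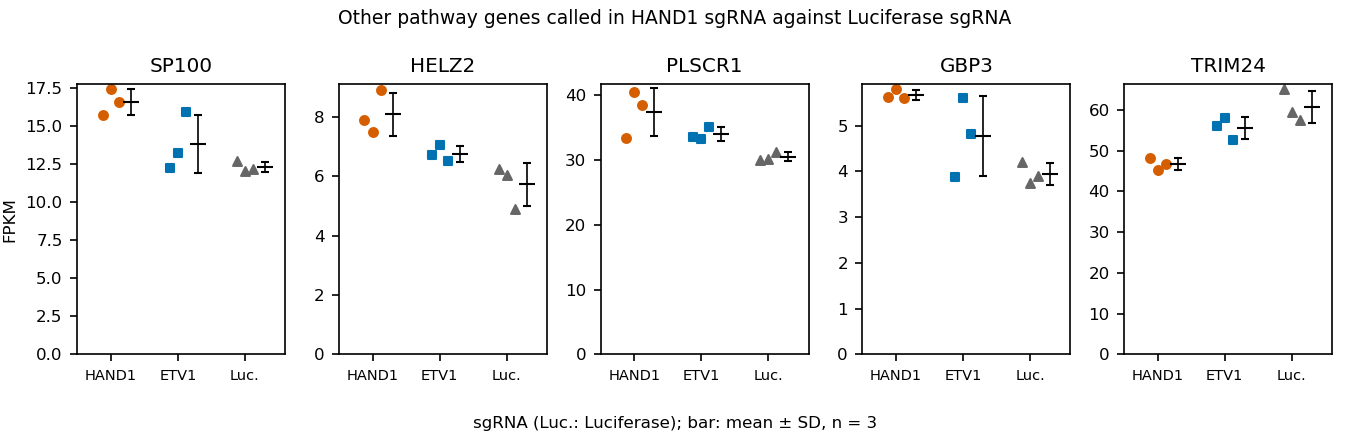
FPKM of the 5 other pathway genes called with HAND1 sgRNA against Luciferase sgRNA, 1 panel per gene, with 1 point per library and the mean ± SD (n = 3) for HAND1 sgRNA, ETV1 sgRNA and Luciferase sgRNA; all axes start at 0. SP100, HELZ2, PLSCR1 and GBP3 sit higher with HAND1 sgRNA and TRIM24 lower, with the ETV1 sgRNA mean between the other means in each panel.

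Neither ETV1 sgRNA against Luciferase sgRNA nor HAND1 sgRNA against ETV1 sgRNA called any of the 66 pathway genes in limma (0 of 66 each, against 0.203% and 4.05% of all genes). An unadjusted p under 0.05 was found for 5 of 66 with ETV1 sgRNA against Luciferase sgRNA, against 8.2% of all genes, and for 7 of 66 with HAND1 sgRNA against ETV1 sgRNA, against 15.4%. The 21 interferon ligand genes were not tested: IFNA21 reached at most 0.159 FPKM and the other 20, IFNB1 and IFNG included, were listed at 0 in all 9 libraries. Of 10 receptors and kinases 9 were tested, and 0 of 9 were called in any comparison. IFNAR1 was at 18.2 to 21.9 FPKM, IFNAR2 at 10.1 to 16.9 FPKM, JAK1 at 53.7 to 65.4 FPKM and TYK2 at 16.1 to 20.3 FPKM. IFNLR1, a receptor chain of the lambda interferons, reached at most 0.0754 FPKM and was not tested. TMEM173 (STING), the adaptor of cytosolic DNA sensing, was at 47.3, 45.5 and 48.9 FPKM with HAND1 sgRNA against 42.9, 39.9 and 35.5 FPKM with Luciferase sgRNA, without overlap, and was not called (0.26, adjusted p = 0.0658). Of 11 genes listed for nucleic acid sensing 4 were not tested: MB21D1 (cGAS), IFI16, AIM2 and ZBP1. The highest value of any of these was 0.166 FPKM, for IFI16.

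Other genes of MHC class I presentation, nearly all of them outside that stretch of chromosome 6, were expressed and did not pass the test. Of 13 tested, 0 were called in any comparison: CALR, a chaperone of the loading complex, was at 895 to 1058 FPKM over the 9 libraries and PSMB10, another immunoproteasome subunit, at 20.8 to 29.7 FPKM. None of the 10 MHC class II genes examined had a mean of 1 FPKM. The highest was CD74, the invariant chain, with at most 1.19 FPKM, and most of the others lie in the same region.

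CD68, the 1 leukocyte marker of 12 with a mean above 1 FPKM, also rose with HAND1 sgRNA. It was at 5.35, 6.68 and 6.35 FPKM with HAND1 sgRNA against 3.92, 4.75 and 3.52 FPKM with Luciferase sgRNA, without overlap (0.50, SE 0.13, adjusted p = 0.0466). The limma call of CD68 ended without replicate 1, 2 or 3 of HAND1 sgRNA (adjusted p = 0.0550, 0.151 and 0.143), ETV1 sgRNA replicate 1 (0.0717) or Luciferase sgRNA replicate 1 or 3 (0.110 and 0.108). It also ended without the filter on low values (0.0991), after rescaling to TPM (0.0535), with library weights (0.0533) and with only these groups in the fit (adjusted p = 0.0568). The 12 markers summed to 5.56 to 8.42 FPKM with HAND1 sgRNA, 7.14 to 8.39 FPKM with ETV1 sgRNA and 4.80 to 6.04 FPKM with Luciferase sgRNA. Without CD68 the sums were 0.201 to 2.07, 2.26 to 3.37 and 0.877 to 1.36 FPKM in the same order of groups. MS4A1 and ITGAM were at 0 in all 9 libraries and PTPRC, the pan-leukocyte marker, reached at most 0.0581 FPKM.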

How the data were processed

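PolyA RNA of GIST-T1, from an RNeasy Plus isolation, was sequenced on a NovaSeq6000 after NEBNext Ultra II non-stranded library preparation, per the labels' protocols. The authors deposited 1 FPKM value per gene and library. The submitters' processing notes name STAR and Cufflinks and the genome build hg19, with no version, and neither the annotation nor the scaling between libraries is stated there. FPKM are not counts, so no count model was applied. Values below 1e-06 were read as 0.

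The 11348 genes (of 23610) whose mean over the 9 libraries reached 1 FPKM were transformed to log2(FPKM + 1), the pseudocount being 1. They were modelled in limma 3.58.1 (R 4.3.3) by group alone, in 1 fit of all 9 libraries with an intensity trend, which left 6 residual and 4.15 prior degrees of freedom. Two-sided p-values were adjusted by Benjamini and Hochberg's method over all genes tested, and the script was tested on simulated data. The 48 members, the pathway and marker lists and the tests were chosen with earlier results of these data known, so medians and counts of the members are descriptions. The text names every member called in some comparison and the highest member of each role group, and gives the others by their values or ranges. It likewise names the called genes of each pathway list, or its highest gene. RPS18, RPS28, TUBB, DDX39B, RPS10, BRD2, IFNAR1, IFNAR2, TYK2 and PSMB10 were named after their values were seen. So were IFNLR1, MB21D1, IFI16, AIM2, ZBP1 and the uncalled members singled out because their groups did not overlap. Some genes of the pathway lists are counted but not reported by name here.

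Promoters and the gene order came from RefSeq (GRCh38.p14), and transcript lengths and exon overlaps from a GENCODE annotation, all of another build than the files and matched by symbol. The depth of a library relative to Luciferase sgRNA replicate 1 was read from the most frequent ratio of genes between 0.001 and 0.1 FPKM. The 20 alternatives changed the pseudocount (to 0.1 or 5), the filter (none, or a mean of 5 FPKM), the scaling (median centring, quantiles or TPM) or the model (no trend, weighted libraries, a fit of the compared groups alone, a block for the replicate number), or left out each of the 9 libraries in turn.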

Additional observations from a re-analysis of the deposited data

How the results depend on the processing

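Under the 20 alternatives no sign changed among the differences followed, those of the called genes and of the members with an unadjusted p under 0.05. With HAND1 sgRNA against Luciferase sgRNA, the number of called members was 2 after rescaling to TPM and 3 with only these groups in the fit. It was 3 with the replicate number as a block (the calls of DHX58 and DTX3L ended there, as did those of HELZ2 and GBP3 among the pathway genes), and 2 to 5 with a library left out. Of all genes, 4.79%, 5.25% and 5.57% were called in these settings in turn, and 3.82% to 6.42% with a library left out. Library weights gave 6 called members, with IFITM1 and PARP9 gained and DHX58 lost, where 11.6% of all genes were called. The median of the members in this comparison was 0.088 with a pseudocount of 5, 0.088 without the filter on low values, 0.22 after rescaling to TPM and 0.090 to 0.15 with a library left out. With ETV1 sgRNA against Luciferase sgRNA the median was 0.13 after rescaling to TPM and 0.062 to 0.13 with a library left out. There 0 to 1 members were called with a library left out, against 0.097% to 0.247% of all genes. With HAND1 sgRNA against ETV1 sgRNA, 1 member was called after rescaling to TPM and 1 to 2 with a library left out, against 2.51% and 2.39% to 5.22% of all genes. Over all genes, library weights gave 45 calls for ETV1 sgRNA and 1312 for HAND1 sgRNA against Luciferase sgRNA, and only the groups compared gave 14 for ETV1 sgRNA. Rescaling to TPM gave 285 for HAND1 sgRNA against ETV1 sgRNA. With a library left out these counts ranged from 11 to 28, 433 to 729 and 271 to 592, for ETV1 sgRNA, HAND1 sgRNA and HAND1 sgRNA against ETV1 sgRNA. The cause of these shifts was not tested. The replicate numbers are shared between the groups, but deviations of same-numbered libraries from their group means correlated at −0.146 to 0.138. Little shared deviation was thus seen, which does not exclude a common culture or batch of same-numbered libraries. Depth is known only in relative terms, and genes under 1 FPKM were not tested.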
